A study of Mus musculus with 10 samples.

Results

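WNT pathway genes were followed through the lens epithelium of mice that overexpress TGF-β1 in the lens. The members were 45 gene symbols drawn up as a list of WNT ligands, their receptors and co-receptors, secreted inhibitors, feedback regulators and TCF/LEF transcription factors, and 44 of them had a row of their own among the 50763 genes of the count table. The symbol Sfrp3 had no row, since it is another name of Frzb, which did. WNT ligands are secreted glycoproteins that carry a lipid and bind frizzled receptors together with a co-receptor. With LRP5 or LRP6 as the partner, the signal keeps β-catenin from being degraded, so that it can enter the nucleus and work with TCF/LEF factors. With ROR1 or ROR2 it runs through β-catenin-independent routes that act on cell shape and movement, and both routes have been described in the lens epithelium.

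RNA was sequenced from whole lens epithelial explants of 3-week-old FVB/N mice in 3 groups. The wild-type (WT) group held 3 libraries, each pooled from up to 9 mice, the OVE853 line held 3 libraries of up to 9 mice each, and the OVE918 line held 4 libraries of up to 7 mice each. Both lines carry a transgene for a secreted, constitutively active human TGF-β1 that the lens-specific αA-crystallin promoter drives, and their explants bore anterior subcapsular plaques, the fibrotic growths under the front of the lens capsule. Each line is 1 transgenic family, so a difference between the lines is also a difference between families, and pooling leaves the spread between single mice unseen. In such bulk explants, fewer cells of a type and less RNA per cell cannot be told apart.

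Total counts ran from 24073311 to 28645174 in WT, from 27409730 to 31908525 in OVE853 and from 25342220 to 28562553 in OVE918 libraries. Levels are given as CPM, counts scaled to TMM-adjusted library sizes, and levels of different genes are compared only as FPKM, the same value per kilobase of exon. The Tgfb1 row, which checks the labels, stood at 50.6 to 61.7 CPM in WT, 339 to 361 CPM in OVE853 and 715 to 881 CPM in OVE918 libraries, and reads of the human transgene and of the mouse gene were not told apart in it. The defining lens epithelial genes Foxe3, Pax6 and Cryaa were present in every library. WT replicate 3 stood apart from the other WT libraries: its 10 retinal neuron markers summed to 793 CPM against 68.9 and 86.9 CPM, each of the 10 being highest there, and its 7 Müller glia markers summed to 1905 CPM against 854 and 793 CPM. It was the lowest WT library for 16 of the 23 WNT genes tested (69.6%), against 38.4% of all genes tested, so values without it are given where they change a call.

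The comparison of each line with WT asks which WNT genes differ in a lens exposed to excess TGF-β1. Genes that reached 2 FPKM in 5 or more of the libraries were tested with edgeR's quasi-likelihood test, and a gene was called elevated or reduced at a Benjamini-Hochberg adjusted p (FDR) of at most 0.05 and a log2 fold change of at least 1 in size. Below, a gene "rose" or "fell" when it passed the FDR, whatever its fold. Of the 44 WNT genes, 23 passed the minimum of 2 FPKM. In OVE853, 5 of the 23 were called, against 4.42% of all 11097 genes tested: Fzd2, Fzd7, Ror1 and Ror2 were elevated (2.51% of all genes were) and Notum was reduced (1.91% of all genes were). In OVE918, 4 of the 23 were called, against 5.60% of all genes: Fzd2 and Ror2 were elevated (2.58% of all genes were) and Fzd5 and Notum were reduced (3.02% of all genes were). Some of these genes passed the minimum only through groups where they were high. Ror2 reached 2 FPKM in 6 libraries, none of them WT. Fzd5 reached it in 6 and Notum in 5, none of them OVE918. Their part in the counts is a description and no support. The less strict filter below gave the same calls for these genes. At the FDR alone, 4 rose and 5 fell in OVE853, where 15.8% of all genes passed, and 5 rose and 6 fell in OVE918, where 19.0% did. The median log2 fold change of the 23 was 0.15 in OVE853 and 0.21 in OVE918, beside -0.01 and 0.01 over all genes tested. Both comparisons share the 3 WT libraries.

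A less strict filter, filterByExpr, tested 40 of the 44 genes among 18058. It called 7 elevated and 2 reduced in OVE853, where 3.17% and 3.72% of all genes were, and 7 elevated and 5 reduced in OVE918, where 3.45% and 5.34% were. Genes that only this filter tested are marked below as low-level genes. Wnt4, Sfrp2, Sfrp5 and Dkk2 were not tested under either filter, with at most 30 counts in any library. The plot of log2 fold changes by role shows the 40 genes together.

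**Figure D1:**
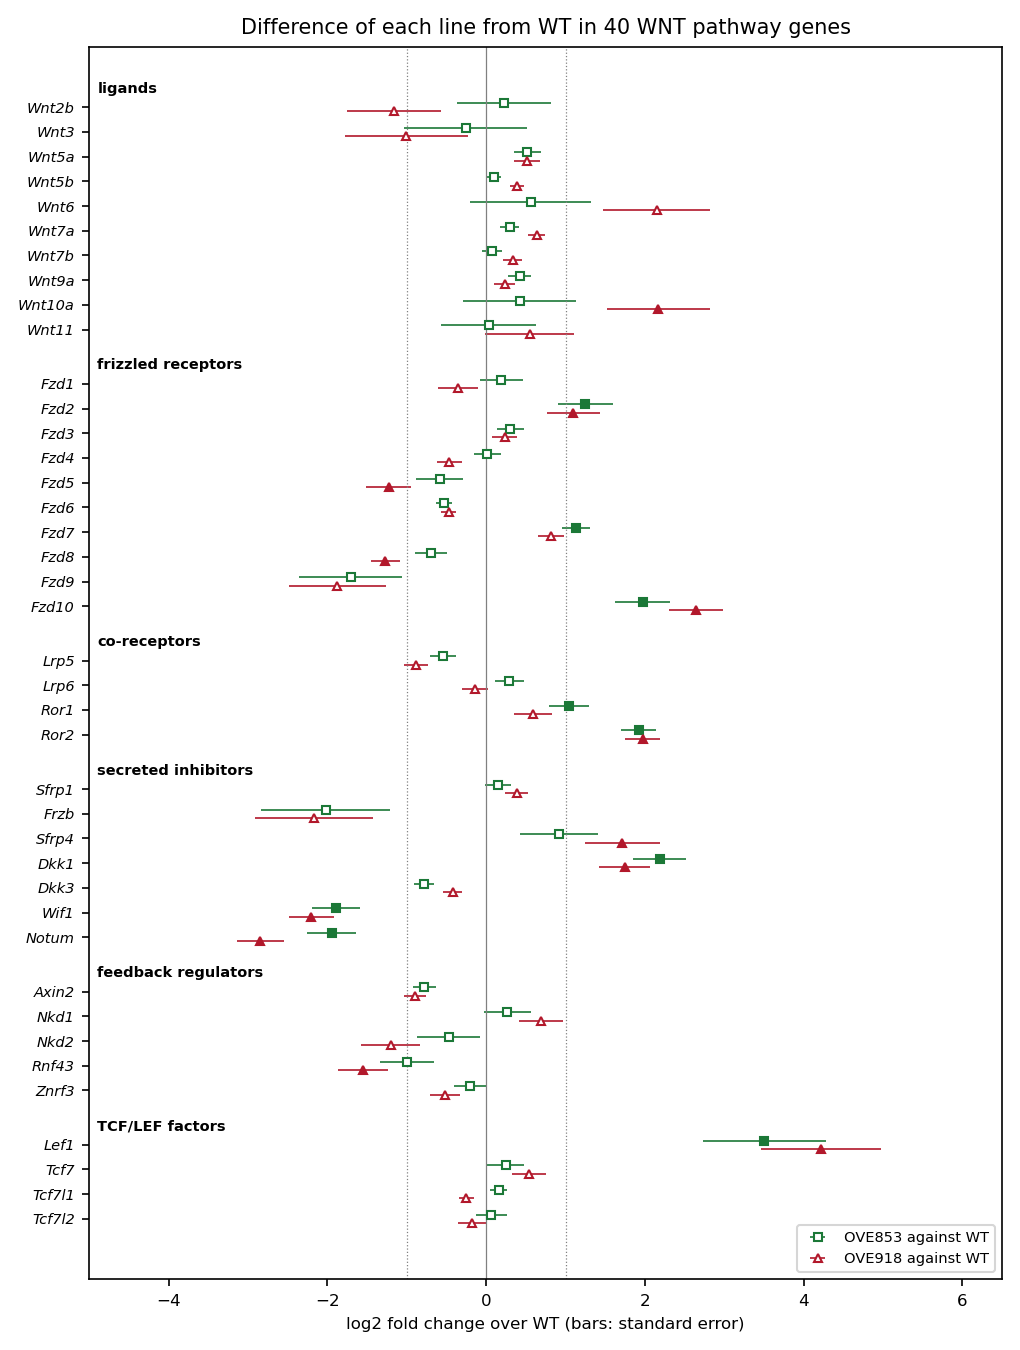
log2 fold change over WT (x axis, bars are standard errors) of 40 WNT pathway genes tested with filterByExpr, grouped by role, with squares for OVE853 and triangles for OVE918 and filled symbols for genes called. Ligands lie near 0 except the scarce Wnt2b, Wnt3, Wnt6 and Wnt10a, while Ror2, Fzd10, Dkk1 and Lef1 lie to the right and Notum and Wif1 to the left in both lines.

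Among the 11 ligands, Wnt7b made up most of the transcripts. Per length it stood at 179 FPKM in WT, which was 75.3% ± 1.59 (SD, n = 3) of the FPKM of all 11 ligands, and its share was 73.5% ± 0.807 (n = 3) in OVE853 and 73.4% ± 0.955 (n = 4) in OVE918. Wnt5b followed at 30.9 FPKM and Wnt7a at 19.9 FPKM in WT, whereas Wnt5a stood at 4.38 FPKM and Wnt9a at 2.50 FPKM. The other 6 ligands, Wnt2b, Wnt3, Wnt4, Wnt6, Wnt10a and Wnt11, had mean levels under 0.5 FPKM in each group. The lens epithelium thus kept the same leading ligand in all 3 groups.

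None of the 5 ligands tested with the FPKM minimum was called in either line. Wnt7b, which can signal through β-catenin, measured 705, 634 and 537 CPM in WT, 680, 646 and 638 CPM in OVE853 and 743, 774, 733 and 855 CPM in OVE918 libraries. The OVE918 libraries were all above the WT libraries and those of OVE853 lay among them. Its log2 fold change was 0.07 ± 0.12 (SE) in OVE853 and 0.31 ± 0.11 in OVE918, with edgeR FDR of 0.715 and 0.0740 (DESeq2 adjusted p = 0.0222 in OVE918). Without WT replicate 3, the OVE853 value was -0.032 and the OVE918 value was 0.21 (edgeR FDR = 0.217).

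Wnt7a, a close relative of Wnt7b, measured 76.5, 61.1 and 58.8 CPM in WT, 85.1, 79.7 and 75.0 CPM in OVE853 and 103, 90.1, 100.2 and 107 CPM in OVE918 libraries. All OVE918 libraries were above all others. Wnt7a rose in OVE918 by 0.61 ± 0.11 (log2 ± SE, edgeR FDR = 0.0025), and its OVE853 value of 0.29 ± 0.11 did not pass (FDR = 0.104). Wnt5b, a ligand of the β-catenin-independent route, was near-constant in WT at 91.8, 90.6 and 89.4 CPM, and measured 99.8, 101 and 88.9 CPM in OVE853 and 117, 115, 107 and 129 CPM in OVE918 libraries. It rose in OVE918 by 0.37 ± 0.08 (edgeR FDR = 0.0111), while the OVE853 libraries overlapped with WT (0.09 ± 0.09, FDR = 0.491). Wnt5a, the best-known ligand of ROR2, had log2 fold changes of 0.51 ± 0.17 and 0.49 ± 0.16 in OVE853 and OVE918, neither of which passed with edgeR (FDR = 0.0617 and 0.0513) and both of which did with DESeq2 (adjusted p = 0.0320 and 0.0205).

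Wnt10a was the single low-level ligand called. It had 1, 3 and 16 counts in WT, 5, 14 and 10 in OVE853 and 33, 25, 25 and 26 in OVE918 libraries. The OVE918 libraries were above the rest, with a log2 fold change of 2.17 ± 0.65 (edgeR FDR = 0.0427), and OVE853 was at 0.42 ± 0.71 (FDR = 0.709). At these counts the call was lost in 8 of the 10 fits that left out a single library, with log2 fold changes from 1.73 to 3.69 over the 10, and it was kept without WT replicate 3 and without OVE853 replicate 1. Wnt6 showed a like contrast of values, 0.0385 to 0.280 CPM in WT and 0.415 to 0.857 CPM in OVE918 libraries, and did not pass with edgeR (log2 fold change 2.15 ± 0.67, FDR = 0.0516), while DESeq2 called it (2.20, adjusted p = 0.0342).

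Frizzled receptors bind WNT ligands through a cysteine-rich domain outside the cell. Per length, Fzd1 at 26.1 FPKM and Fzd6 at 17.0 FPKM led in WT, with 39.7% ± 9.43 and 27.3% ± 4.46 (SD, n = 3) of the FPKM of all 10 receptors. Fzd2 and Fzd7 took 5.84% ± 2.33 and 7.25% ± 0.109 of it in WT, 12.9% ± 0.232 and 14.0% ± 0.553 in OVE853 (n = 3), and 14.3% ± 1.40 and 13.8% ± 1.23 in OVE918 (n = 4). Fzd6 took 16.2% ± 0.384 in OVE853 and 20.8% ± 1.24 in OVE918. The summed receptor level itself was 63.6 ± 13.3 FPKM in WT, 71.9 ± 3.15 FPKM in OVE853 and 58.0 ± 5.12 FPKM in OVE918. The WT spread takes in WT replicate 3. Fzd1 stood at 58.4 CPM there against 135 and 136 CPM in the other WT libraries, and Fzd5 at 44.1 CPM against 23.1 and 17.9 CPM. No total without that library is given, so the totals of the lines are not ranked against WT.

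**Figure D2:**
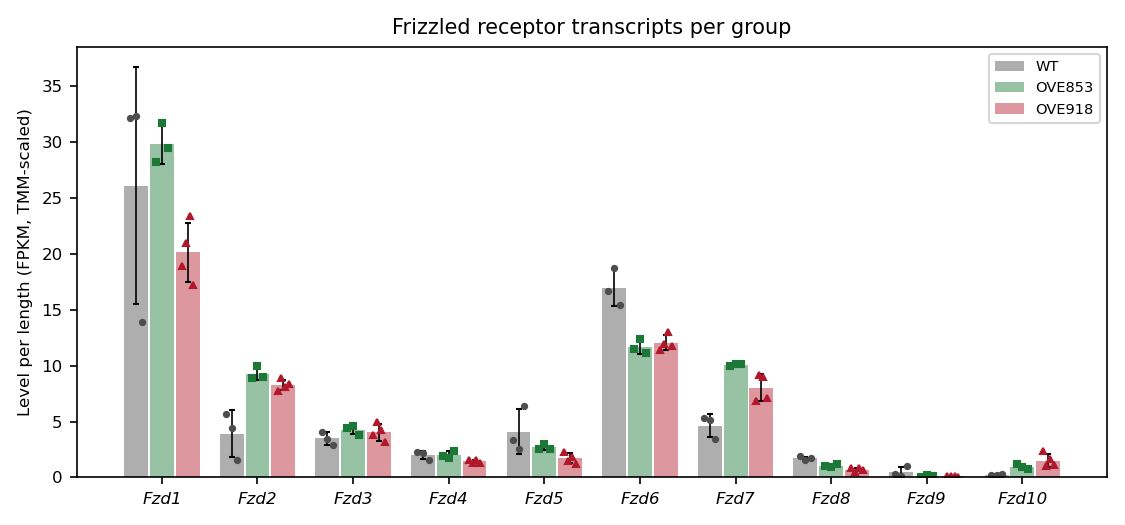
Level per length (FPKM, TMM-scaled, y axis) of the 10 frizzled receptors in WT, OVE853 and OVE918, with bars for group means, error bars for SD and points for single libraries. Fzd2 and Fzd7 lie higher in both lines than in WT and Fzd6 lies lower, and 1 WT library, replicate 3, stands apart for Fzd1, Fzd2 and Fzd5.

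Fzd7, a receptor linked to epithelial progenitor cells, measured 31.0, 30.2 and 20.2 CPM in WT, 58.3, 59.4 and 59.7 CPM in OVE853 and 39.9, 53.6, 52.6 and 41.8 CPM in OVE918 libraries. Every library of both lines was above every WT library. It was elevated in OVE853, with a log2 fold change of 1.13 ± 0.17 (edgeR FDR = 0.00158), and rose in OVE918 by 0.79 ± 0.16 (FDR = 0.00542). Without WT replicate 3 the OVE853 value was 0.95 (FDR = 0.00131), under the fold needed for a call.

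Fzd2, a receptor for WNT5A among others, measured 20.8, 16.3 and 5.86 CPM in WT, 32.6, 36.4 and 32.9 CPM in OVE853 and 28.4, 32.6, 29.7 and 30.5 CPM in OVE918 libraries. The groups did not overlap, and WT replicate 3 was far below the other WT libraries. The log2 fold change was 1.25 ± 0.34 in OVE853 and 1.08 ± 0.32 in OVE918 (edgeR FDR = 0.0326 and 0.0390). Without WT replicate 3 it was 0.87 and 0.71, with a lower FDR of 0.00123 and 0.00205. Over the 10 fits that left out a single library, the call was lost in 6 for OVE853, those without WT replicates 2 or 3, any OVE853 library or OVE918 replicate 3, and in 9 for OVE918, all but the fit without WT replicate 1. The direction held in all of them, with log2 fold changes from 0.87 to 1.62 in OVE853 and from 0.71 to 1.45 in OVE918.

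Fzd10, a low-level gene, measured 0.805, 0.692 and 0.876 CPM in WT, 3.84, 2.89 and 2.55 CPM in OVE853 and 7.54, 3.24, 5.28 and 3.60 CPM in OVE918 libraries. The lowest library of the lines was above the highest WT library. It was elevated by 1.97 ± 0.35 in OVE853 and 2.65 ± 0.34 in OVE918 (edgeR FDR = 0.00514 and 0.00044), and kept its call in all 10 fits that left out a library. Even so it reached only 1.51 FPKM in OVE918.

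Fzd6 and Fzd8 were lower in both lines. Fzd3 (log2 fold change 0.30 ± 0.17 in OVE853 and 0.21 ± 0.16 in OVE918) did not pass with edgeR. Nor did the low-level gene Fzd4 (0.01 ± 0.17 and -0.46 ± 0.16). Fzd6, a receptor of the planar cell polarity route, measured 72.3, 81.0 and 66.9 CPM in WT, 49.6, 53.6 and 48.1 CPM in OVE853 and 49.4, 51.7, 56.2 and 50.8 CPM in OVE918 libraries, with no overlap between WT and either line. It fell by 0.54 on the log2 scale in OVE853 (SE 0.09, edgeR FDR = 0.00412) and by 0.50 in OVE918 (SE 0.09, FDR = 0.0027), less than the fold needed for a call. Fzd8, a low-level gene, measured 11.2, 9.39 and 10.1 CPM in WT, 5.95, 5.67 and 7.25 CPM in OVE853 and 4.84, 3.13, 4.94 and 3.83 CPM in OVE918 libraries. It fell in OVE853 (-0.69 ± 0.20, edgeR FDR = 0.0439, up to 0.142 without single libraries) and was reduced in OVE918 (-1.27 ± 0.19, FDR = 0.00103).

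Fzd5, which serves the development of the retina and ciliary margin, measured 23.1, 17.9 and 44.1 CPM in WT, 17.7, 20.7 and 17.7 CPM in OVE853 and 15.8, 10.3, 12.8 and 8.63 CPM in OVE918 libraries. OVE918 lay below WT and OVE853 overlapped with it. It was reduced in OVE918 (-1.26 ± 0.29, edgeR FDR = 0.0123), and without WT replicate 3, the library with the retinal markers, the value was -0.79 (FDR = 0.0264). Fzd9 and the inhibitor Frzb were also highest in that library, at 2.24 CPM against 0.716 and 0.346 CPM and at 16.9 CPM against 2.59 and 2.27 CPM in the other WT libraries, and neither passed in either line with edgeR. With DESeq2 on the genes of filterByExpr, Frzb was reduced in OVE853 and OVE918 (adjusted p = 0.0338 and 0.0125) and Fzd9 in OVE918 (adjusted p = 0.0427). The summed retinal neuron markers of the lines were at 12.6 to 47.5 CPM in OVE853 and 19.0 to 112 CPM in OVE918 libraries. Fzd1, the leading receptor, measured 135, 136 and 58.4 CPM in WT, 119, 133 and 124 CPM in OVE853 and 79.5, 87.9, 98.3 and 72.2 CPM in OVE918 libraries. Fzd1 did not pass (log2 fold change 0.19 ± 0.26 and -0.37 ± 0.24, edgeR FDR = 0.626 and 0.318). Without WT replicate 3, its OVE853 value turned to -0.11 and it fell in OVE918 by 0.68 (edgeR FDR = 0.00231). The part of retinal RNA in these values was not tested.

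Among the co-receptors, Ror2 rose and Lrp5 fell in both lines. ROR2 is a receptor tyrosine kinase-like protein that receives WNT5A. The gene (chr13:53263348-53440247, minus strand, GRCm39) measured 3.49, 1.92 and 3.05 CPM in WT, 10.2, 11.1 and 10.5 CPM in OVE853 and 10.4, 11.7, 12.9 and 8.49 CPM in OVE918 libraries. All 7 libraries of the lines were far above the 3 WT libraries, and the lines overlapped with each other. The fold change was 3.76 in OVE853 and 3.86 in OVE918, that is 1.91 ± 0.22 and 1.95 ± 0.21 on the log2 scale (edgeR FDR = 0.000294 and 0.000118). It was called in every fit that left out a library, with log2 fold changes from 1.69 to 2.09 in OVE853 and from 1.74 to 2.12 in OVE918.

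Ror1, the second member of the family, was the more abundant one per length, at 9.30 FPKM against 0.707 FPKM for Ror2 in WT. It measured 63.7, 64.4 and 33.5 CPM in WT, 104, 119 and 109 CPM in OVE853 and 70.2, 103, 85.3 and 62.9 CPM in OVE918 libraries. OVE853 was above WT throughout, whereas OVE918 replicate 4 lay among the WT libraries. It was elevated in OVE853 (1.04 ± 0.24, edgeR FDR = 0.0179) and did not pass in OVE918 (0.58 ± 0.23, FDR = 0.106). Without WT replicate 3 the OVE853 value was 0.79 (FDR = 0.0173), and without OVE853 replicates 1, 2 or 3 the FDR was 0.0529, 0.0604 or 0.0572.

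Lrp5, one of the co-receptors of the β-catenin route, measured 18.7, 15.2 and 18.4 CPM in WT, 13.0, 10.4 and 12.3 CPM in OVE853 and 9.34, 9.16, 11.3 and 7.43 CPM in OVE918 libraries. Both lines were below WT without overlap. Lrp5 reached 2 FPKM in exactly 5 libraries, those of WT and OVE853 replicates 1 and 3. It was thus at the edge of the filter and passed it without any OVE918 library. Lrp5 fell by 0.55 in OVE853 (SE 0.16, edgeR FDR = 0.0395) and by 0.90 in OVE918 (SE 0.15, FDR = 0.00164), and the OVE853 FDR reached 0.133 when single libraries were left out. Without OVE918 replicate 3 the OVE918 value was -1.01, past the fold for a call. Lrp6, the more abundant of the pair at 8.08 FPKM in WT, did not pass in either line (0.29 ± 0.18 and -0.16 ± 0.17).

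Secreted inhibitors act outside the cell, either by binding WNT ligands (the SFRP family and WIF1), by binding LRP5 and LRP6 (DKK1), or by removing the lipid that WNT ligands need (NOTUM). Of the 10 with a row, Dkk3 at 560 FPKM and Sfrp1 at 273 FPKM in WT made up nearly all of the transcripts, at 66.1% and 32.2% of the summed FPKM. Sfrp1 measured 1506, 1290 and 992 CPM in WT, 1427, 1516 and 1243 CPM in OVE853 and 1577, 1672, 1563 and 1682 CPM in OVE918 libraries, all of the last above WT. It did not pass with edgeR (0.14 ± 0.15 and 0.36 ± 0.14, FDR = 0.516 and 0.0991), whereas DESeq2 gave an adjusted p of 0.0443 in OVE918. Dkk3, a divergent DKK that does not act as the others do on LRP5 and LRP6, measured 3554, 3051 and 3734 CPM in WT, 2151, 1985 and 1834 CPM in OVE853 and 2481, 2320, 2529 and 2788 CPM in OVE918 libraries. The groups did not overlap. Dkk3 fell by 0.79 in OVE853 (SE 0.13, edgeR FDR = 0.00231) and by 0.45 in OVE918 (SE 0.12, FDR = 0.0217; 0.0589 without WT replicate 3).

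Notum showed the largest decrease among the WNT genes tested with the FPKM minimum. The gene lies at chr11:120541446-120552019 on the minus strand (GRCm39). It is known both as an enzyme that inactivates WNT ligands and as a target that β-catenin signaling switches on. The 250 bases before its canonical start are shown with 238 bases for Axin2 and 30 bases around the core for Nkd1, 2 other negative-feedback genes of the pathway, because these 3 were the WNT genes with the TCF/LEF core CTTTGA, searched on both strands, nearest to the start. Capitals mark that core, each sequence runs 5′ to 3′ on the strand of its gene, and each was read from the GRCm39 genome with GENCODE vM39 starts. The Axin2 stretch ends where an exon of another Axin2 transcript begins, so the last bases before the canonical start are not shown:
Notum, chr11:120552020-120552269, minus strand, in an exon of the antisense RNA Notumos: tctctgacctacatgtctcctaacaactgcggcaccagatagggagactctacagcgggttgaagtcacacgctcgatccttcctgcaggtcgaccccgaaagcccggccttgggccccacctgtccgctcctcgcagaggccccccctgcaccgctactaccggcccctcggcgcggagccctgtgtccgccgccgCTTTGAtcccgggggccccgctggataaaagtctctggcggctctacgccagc
Axin2, chr11:108811388-108811625, plus strand, in an intron of a longer Axin2 transcript: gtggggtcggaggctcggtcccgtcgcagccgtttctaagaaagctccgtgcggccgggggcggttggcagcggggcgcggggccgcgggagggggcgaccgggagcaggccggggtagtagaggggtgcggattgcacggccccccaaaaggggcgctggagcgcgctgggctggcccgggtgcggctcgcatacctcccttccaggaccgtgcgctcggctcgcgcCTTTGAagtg
Nkd1, chr8:89247887-89247916, plus strand, mostly in the first exon of another Nkd1 transcript: cgtccgcctcgcCTTTGAtgggccgctgcc

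Counted from the canonical start, the core began 22 bases before that of Axin2, 26 before that of Nkd1 and 53 before that of Notum. It was present in the 250 bases before 7 of the 44 WNT genes (15.9%), the other 4 being Lrp6, Tcf7l1, Ror1 and Wif1, and before 3073 of 21751 protein-coding genes (14.1%). CAGAC, a core bound by SMAD proteins, the effectors of TGF-β receptors, was found before 21 of the 44 (47.7%) and 41.3% of all. The shares of the WNT genes were thus near those of all genes. A match of these letters is a description of the sequence and not a measured binding site.

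Notum measured 37.7, 16.7 and 21.2 CPM in WT, 7.89, 4.30 and 7.28 CPM in OVE853 and 3.34, 2.98, 4.01 and 3.46 CPM in OVE918 libraries. The 3 groups did not overlap, with OVE918 lowest throughout. The log2 fold change was -1.95 ± 0.30 in OVE853 and -2.87 ± 0.29 in OVE918 (edgeR FDR = 0.00215 and 7.84e-05), that is 3.87-fold and 7.30-fold lower. It was called in all 10 fits that left out a library, with values from -2.19 to -1.55 in OVE853 and from -3.09 to -2.46 in OVE918. Notum reached 2 FPKM in exactly 5 libraries, the 3 of WT and OVE853 replicates 1 and 3, so it was at the edge of the filter. The difference between the lines, -0.91 ± 0.29, did not pass (FDR = 0.118).

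Wif1, which sequesters WNT ligands and was a low-level gene here, measured 5.41, 3.81 and 3.26 CPM in WT, 1.03, 1.11 and 1.19 CPM in OVE853 and 0.685, 0.745, 1.23 and 0.877 CPM in OVE918 libraries. All libraries of the lines were below all WT libraries. It was reduced in both lines (-1.89 ± 0.30 and -2.20 ± 0.28, edgeR FDR = 0.0032 and 0.00044), and in every fit without a library. Dkk1, the classical LRP5 and LRP6 antagonist and a low-level gene too, went the other way: it measured 1.30, 1.38 and 0.631 CPM in WT, 4.62, 5.52 and 4.90 CPM in OVE853 and 3.60, 2.83, 5.13 and 3.05 CPM in OVE918 libraries. Again both lines were separate from WT, though they overlapped with each other. Dkk1 was elevated by 2.19 ± 0.34 and 1.75 ± 0.32 (edgeR FDR = 0.00244 and 0.00385), also in every fit without a library. Sfrp4, a further low-level gene, measured 0.492, 0.0769 and 0.316 CPM in WT, 0.514, 0.593 and 0.545 CPM in OVE853 and 1.11, 0.820, 1.04 and 0.830 CPM in OVE918 libraries. It was elevated in OVE918 (1.72 ± 0.47, edgeR FDR = 0.0291), a call that was lost without WT replicate 3 or OVE918 replicates 1 or 3 (FDR = 0.0624, 0.0605 and 0.0694), and did not pass in OVE853 (0.92 ± 0.50, FDR = 0.222).

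**Figure D3:**
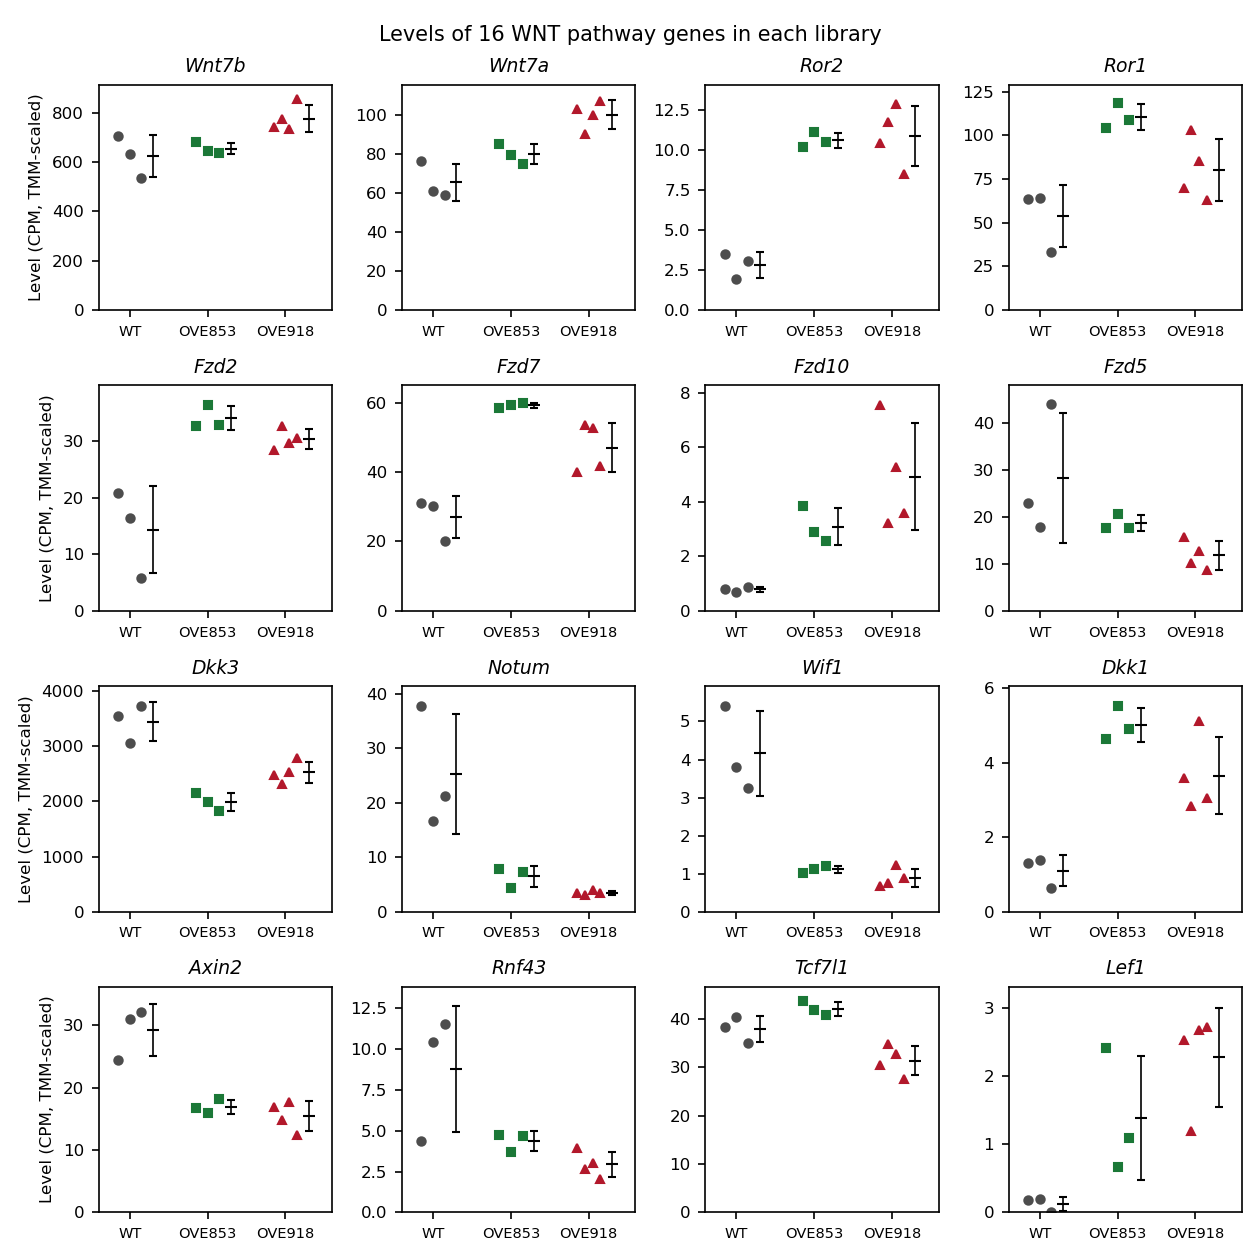
Level (CPM, TMM-scaled, linear y axes from 0) of 16 WNT pathway genes in each library of WT, OVE853 and OVE918, with the group mean and SD beside the points. Ror2, Fzd2, Fzd7, Fzd10 and Dkk1 sit above WT and Notum, Wif1, Axin2 and Dkk3 below it in every library of both lines, while the Lef1 points of the lines are widely spread.

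Markers of other cell types also differed between the lines and WT, here counted with filterByExpr. The lists were chosen with earlier results of these data known. Several listed genes, such as Best2, Slc6a13, Wfdc1, Calb2, Rlbp1 and Aldh3a1, are among the top reduced genes of the study. The counts are therefore descriptions and no independent support. Over all genes, 3.72% were reduced in OVE853 and 5.34% in OVE918. Of 8 genes listed for the non-pigmented ciliary epithelium, the tissue next to the lens equator, 5 were reduced in OVE853 and 7 in OVE918. Slc6a13 measured 39.9 to 76.9 CPM in WT, 3.57 to 7.73 CPM in OVE853 and 1.19 to 3.34 CPM in OVE918 libraries. Aqp1 was not called in either line and went the other way in OVE853. It measured 483 to 851 CPM in WT, 1184 to 1406 CPM in OVE853 and 763 to 922 CPM in OVE918 libraries. The summed level of the 8, Aqp1 included, ranged from 1387 to 1676 CPM in WT, 1466 to 1722 CPM in OVE853 and 824 to 1034 CPM in OVE918. Of the 8 lens epithelial markers, Gja1 was the 1 that was reduced, in both lines, and their sum ranged from 153891 to 159045 CPM in WT, 103966 to 118510 CPM in OVE853 and 128372 to 195713 CPM in OVE918. Cryaa and Cryab, with WT means of 116591 and 37052 CPM, made up most of that sum. Without a call, Cdh1 averaged 334, 197 and 218 CPM in WT, OVE853 and OVE918, and Slc38a3 187, 158 and 110 CPM. Pitx3 averaged higher in both lines than in WT, and Foxe3 and Pax6 higher in OVE853 and lower in OVE918. Of the 7 Müller glia markers, 5 and 4 were reduced in OVE853 and OVE918, with sums of 793 to 1905 CPM in WT, 517 to 582 CPM in OVE853 and 373 to 502 CPM in OVE918. Of the 9 markers of pigmented epithelium, 3 were reduced in each line, with sums of 58.7 to 181, 39.2 to 83.0 and 40.2 to 75.8 CPM in the same order of groups. Of the 10 retinal neuron markers, 3 and 1 were reduced. The cornea and conjunctiva list of 7 genes, of which Kera was at 0 in every library, had 3 tested and 2 of these, Krt12 and Aldh3a1, reduced in each line, with sums of 237 to 1619 CPM in WT, 62.8 to 93.4 CPM in OVE853 and 26.9 to 82.4 CPM in OVE918. Nearly all of each sum was Aldh3a1, at 236, 937 and 1611 CPM in WT. The keratins of the list were at most 4.91 CPM, the Krt12 value in WT replicate 3.

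Other markers were elevated, beside 3.17% of all genes in OVE853 and 3.45% in OVE918. Of 7 endothelial genes, Cdh5 was elevated in OVE853 and 4, among them Cdh5 and Pecam1, in OVE918, with sums of 20.4 to 121 CPM in WT, 18.3 to 33.4 CPM in OVE853 and 18.0 to 32.6 CPM in OVE918. Kdr, which led the WT sums, was not called. It measured 15.4, 15.2 and 113 CPM in WT, 6.33 to 14.1 CPM in OVE853 and 5.36 to 14.1 CPM in OVE918. The means of Kdr and Esam were lower in both lines than in WT, and those of the other endothelial genes were higher. Of 8 macrophage genes, Mrc1 was reduced in both lines and Cd68 and C1qa were elevated in OVE918, with sums of 16.6 to 40.6, 38.7 to 61.0 and 27.3 to 70.9 CPM in the same order. Of the 9 photoreceptor genes tested, Nrl was elevated in OVE918. No gene was called among the 6 tested of 8 fibroblast and mesenchyme genes, the 10 lens fiber genes or the 4 tested erythrocyte genes. The fibroblast and mesenchyme sums were 465 to 687 CPM in WT, 858 to 862 CPM in OVE853 and 533 to 656 CPM in OVE918. Pdgfra made up most of them, with means of 374, 568 and 410 CPM, and Pdgfrb and Col1a2 most of the rest. Dcn and Thy1 had lower means in both lines than in WT, Col3a1 had higher ones, and Lum and Twist2 were near the floor. The sums of lens fiber genes were 18308 to 36407, 19989 to 31081 and 26832 to 45247 CPM in the same order of groups. The part of these other cells in the elevated and in the reduced WNT genes was not tested.

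Feedback regulators are genes that WNT signaling switches on and that then restrain it. Axin2 (chr11:108811169-108841609, plus strand), a scaffold of the complex that degrades β-catenin and a widely used readout of the pathway, measured 24.5, 31.1 and 32.2 CPM in WT, 16.7, 16.0 and 18.2 CPM in OVE853 and 16.9, 14.8, 17.7 and 12.5 CPM in OVE918 libraries. Every library of the lines was below every WT library, and the lines overlapped. Axin2 fell by 0.79 in OVE853 (SE 0.15, edgeR FDR = 0.00623) and by 0.92 in OVE918 (SE 0.14, FDR = 0.000926), short of the fold for a call. Of the fits that left out a library, that without WT replicate 1 gave -1.03 in OVE918, past that fold, and the others did not reach it. Nkd1, also shown above with the core, did not pass (0.25 ± 0.30 and 0.66 ± 0.28, edgeR FDR = 0.574 and 0.132).

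Rnf43, an E3 ubiquitin ligase that removes frizzled receptors from the cell surface, was a low-level gene at 4.38, 10.4 and 11.5 CPM in WT, 4.71, 3.67 and 4.70 CPM in OVE853 and 3.94, 2.68, 3.05 and 2.08 CPM in OVE918 libraries. WT replicate 1 was close to the lines and the other WT libraries were well above them. It was reduced in OVE918 (-1.56 ± 0.32, edgeR FDR = 0.00662). In OVE853 it did not pass (-0.998 ± 0.34, FDR = 0.0716), but it did without WT replicate 1 (-1.31, FDR = 0.00837) and by DESeq2 (-1.01, adjusted p = 0.0255). With edgeR its relative Znrf3 did not pass (-0.21 ± 0.20 and -0.54 ± 0.19), nor did Nkd2 (-0.47 ± 0.40 and -1.20 ± 0.37, FDR = 0.436 and 0.0516). In OVE918 both passed with DESeq2 (adjusted p = 0.0365 and 0.0110).

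TCF/LEF factors bind DNA and recruit β-catenin. Tcf7l1, which mostly acts as a repressor, led per length at 8.75 FPKM, or 74.4% ± 2.52 (SD, n = 3) of the FPKM of the 4 factors in WT. It measured 38.4, 40.2 and 35.0 CPM in WT, 43.6, 41.8 and 40.8 CPM in OVE853 and 30.5, 34.7, 32.7 and 27.5 CPM in OVE918 libraries. The OVE853 libraries lay above WT and those of OVE918 below it, and neither difference passed (0.15 ± 0.10 and -0.27 ± 0.10, edgeR FDR = 0.314 and 0.0707), nor did that between the lines (-0.42 ± 0.10, FDR = 0.0591).

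Lef1, which mostly acts as an activator with β-catenin, was a low-level gene close to the detection floor in WT. It had 4, 5 and 0 counts in WT, 80, 18 and 32 in OVE853 and 59, 32, 72 and 59 in OVE918 libraries. No library of the lines was as low as a WT library, and the spread among them was wide: 2.42, 0.667 and 1.09 CPM in OVE853 and 2.53, 1.19, 2.68 and 2.72 CPM in OVE918. Lef1 was elevated by 3.51 ± 0.77 in OVE853 and 4.22 ± 0.75 in OVE918 (edgeR FDR = 0.0162 and 0.00333), sizes that rest on the few WT counts. The OVE853 call was lost without OVE853 replicate 1 (2.84, FDR = 0.0656). Lef1 still made up only 5.33% ± 1.93 (SD, n = 4) of the FPKM of the 4 factors in OVE918. Tcf7 and Tcf7l2 did not pass in either line.

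**Figure D4:**
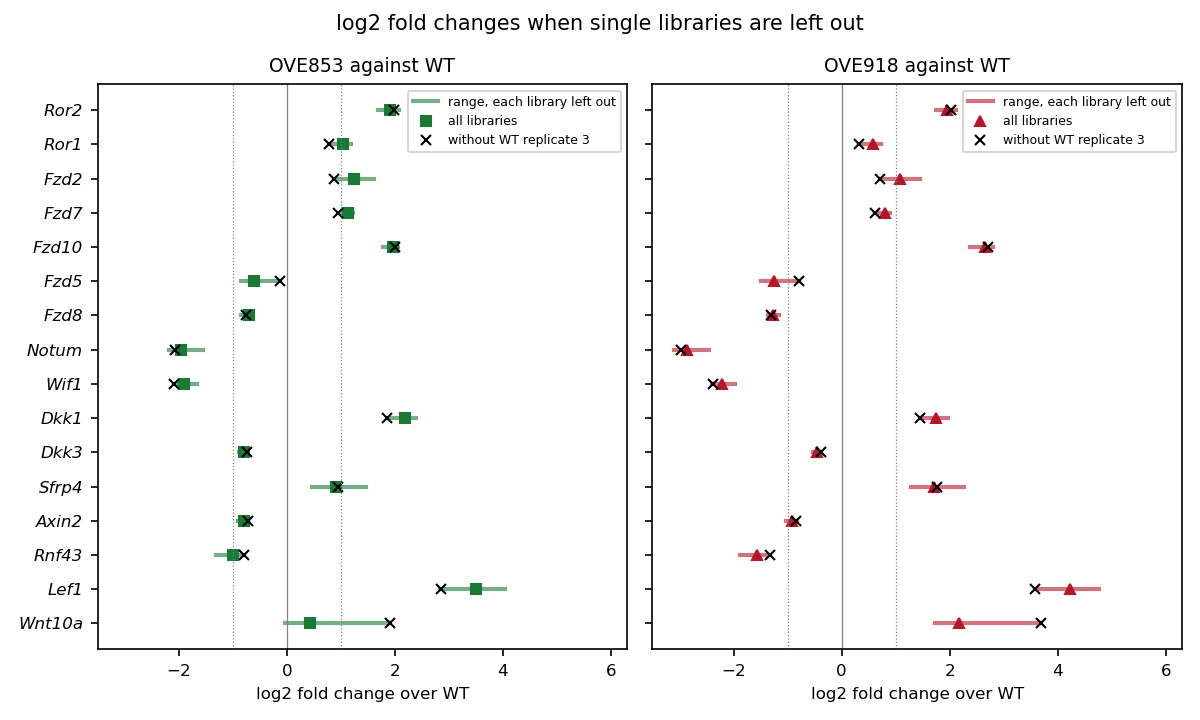
log2 fold change over WT (x axis) of 16 WNT pathway genes in OVE853 and OVE918, with symbols for all libraries, lines for the range over 10 fits that each left out a library and crosses for the fit without WT replicate 3. Ror2, Fzd10, Dkk1, Notum and Wif1 stay beyond a log2 fold change of 1 throughout, while Fzd2, Fzd7, Ror1 and Fzd5 shrink without WT replicate 3.

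Between OVE918 and OVE853, whose Tgfb1 levels differed 2.22-fold, none of the 23 WNT genes was called, against 0.487% of all genes tested. edgeR gave an unadjusted p under 0.05 for 10 of the 23, where 22.9% of all genes had one, and DESeq2 also called 0, against 0.964% of all genes. Among the 40 genes of the less strict filter, 0 were called, against 0.244% of all genes, and 14 had an unadjusted p under 0.05, against 17.7%. The differences of the 23 lay between -0.91 (Notum) and 0.41 (Nkd1) on the log2 scale. For Ror2 the difference was 0.04 ± 0.19 and for Axin2 -0.13 ± 0.14, so a difference between the lines was not detectable for these genes.

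Beyond the members, 79 other WNT pathway genes were listed, of which 50 were tested with the FPKM minimum. In OVE853, 4 of the 50 were called, against 4.42% of all genes tested: Rspo1 (-1.70 ± 0.18), Cthrc1 (-1.60 ± 0.14) and Adgra2 (-1.14 ± 0.17) were reduced and Celsr1 (1.42 ± 0.37) was elevated. In OVE918, 5 of the 50 were called, against 5.60% of all genes: Gpc3 (-2.35 ± 0.37), Rspo1 (-1.59 ± 0.17), Adgra2 (-1.54 ± 0.16) and Daam1 (-1.17 ± 0.16) were reduced and Cd44 (1.07 ± 0.11) was elevated. R-spondin 1, encoded by Rspo1, keeps RNF43 and ZNRF3 from removing frizzled receptors. Rspo1 measured 121, 191 and 217 CPM in WT, 58.6, 57.8 and 46.4 CPM in OVE853 and 59.3, 56.4, 56.8 and 61.5 CPM in OVE918 libraries, far apart from WT in both lines. Adgra2 encodes GPR124, which works with WNT7 ligands, and it measured 29.9 to 47.8 CPM in WT, 17.2 to 19.3 CPM in OVE853 and 11.8 to 15.9 CPM in OVE918 libraries. None of the 17 tested cytoplasmic components was called, beside those same shares of all genes, and Ctnnb1, the gene of β-catenin, measured 622 to 802 CPM in WT, 715 to 760 CPM in OVE853 and 740 to 826 CPM in OVE918 libraries.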

How the data were processed

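Strand-specific paired-end reads were trimmed with cutadapt 5.2, aligned to GRCm39 (mm39) with STAR 2.7.11b and assigned to genes with featureCounts 2.0.8 in reverse-stranded mode, per the labels and the study's methods. The authors deposited raw counts per gene for the 10 libraries, and every value was computed from these counts. FPKM for the filter used union exon lengths of GENCODE vM39 genes, matched by symbol (43252 genes) or synonym (22), whereas the study used RefSeq lengths, and 7489 genes without a length could not pass it.

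All 3 groups entered a single edgeR 4.0.16 quasi-likelihood fit (R 4.3.3, TMM factors, robust estimation, no covariate), with Benjamini-Hochberg adjustment over all genes tested. The log2 fold changes are edgeR's and standard errors are the fold change over the root of F. DESeq2 1.42.0 was an alternative. The fit was tested on simulated data. GEO labels call the libraries biological replicates. Replicate numbers did not pair the libraries: same-numbered libraries deviated with correlations from -0.303 to 0.0838 over 9 pairs.

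The WNT genes and the lists of other pathway genes and cell type markers were chosen with earlier results of these data known. Values in every library are given for WNT genes past the FDR in any comparison, for those called only with filterByExpr, and for the highest gene of each role in WT. Other WNT genes are named where called. Values named outside this rule were chosen after they were seen. Counting error alone gives a floor of 3 counts per library.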

Additional observations from a re-analysis of the deposited data

Results flagged for a closer look

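Within the OVE918 group, 1 of the 23 WNT genes with values in every library had a library far from the rest. Lef1 measured 1.19 CPM in OVE918 replicate 2, the lowest of the 4 OVE918 libraries, and the gap to the next was 0.873 of the group's range. The check was made only in OVE918, the group with 4 libraries, and libraries of WT and OVE853 were not screened with it. Chance alone gives such a gap in about 1 in 20 groups.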

How the results depend on the processing

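DESeq2, upper-quartile normalization, non-robust estimation and bias-adjusted deviances each gave 4 elevated and 1 reduced WNT genes in OVE853 and 2 and 2 in OVE918, the counts of the report. With filterByExpr, the called WNT genes numbered 7 elevated and 2 reduced in OVE853 and 7 and 5 in OVE918, since more genes were tested. DESeq2 on the genes of that filter gave 7 and 4 in OVE853 and 8 and 8 in OVE918, with 8 and 11 other WNT pathway genes. For comparisons with WT, shares of all genes are given above for filterByExpr and for the FDR alone. They are not given for the other alternatives of this section, so those counts show only how calls depend on the setting. Without a filter, 2 were reduced in OVE853, 6 elevated and 5 reduced in OVE918, and 9 other pathway genes called in OVE918. With 2 FPKM in 6 libraries, Notum, Lrp5 and Tcf7l2 were not tested. The loss of Notum left 0 reduced in OVE853 and 1 in OVE918. Without the fold requirement, 5 fell in OVE853, 5 rose and 6 fell in OVE918, and 8 and 14 other pathway genes passed. With only the groups compared, 1 was elevated in OVE918. Without WT replicate 3 and OVE918 replicate 4, chosen after seeing the data as the libraries farthest from their groups, 1 was elevated in OVE853 and 1 reduced in OVE918, and Wnt7b and Fzd1 in OVE853 turned to -0.032 and -0.11.

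Leaving out each library in turn gave 1 to 4 elevated and 1 to 1 reduced WNT genes in OVE853, 1 to 2 and 1 to 3 in OVE918, 0 to 0 between the lines, and 3 to 6 and 5 to 8 other pathway genes. Wnt7b and Fzd1 in OVE853 ranged from -0.032 to 0.16 and from -0.11 to 0.37, below 0 without WT replicate 3, and Wnt10a in OVE853 from -0.023 to 1.92, with -0.023 without WT replicate 1 and -0.013 without OVE853 replicate 2. The cause was not tested. With the replicate number as a block, 3 WNT genes were elevated and 1 reduced in OVE853 and 1 and 1 in OVE918, and these numbers pair no libraries. Of 820 values of single genes under the alternatives, 760 kept direction and side of the threshold. Genes with a few counts per library, such as Lef1 in WT, limit the precision of their fold changes.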

Other observations

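Among the other WNT pathway genes, 2 were called in both lines with filterByExpr alone and were chosen here after their values were seen. Wnt2, a ligand of the β-catenin route, had 1, 0 and 0 counts in the WT libraries, 54, 22 and 47 counts in OVE853 and 63, 20, 78 and 50 counts in OVE918 (edgeR FDR = 0.0017 and 0.000375), and no fold is given against so few WT counts. Apcdd1, a membrane inhibitor of WNT signaling, measured 21.1, 12.9 and 17.3 CPM in WT, 10.6, 5.78 and 8.31 CPM in OVE853 and 5.57, 4.54, 6.73 and 6.97 CPM in OVE918 libraries. All libraries of the lines lay below WT, with log2 fold changes of -1.04 ± 0.25 and -1.50 ± 0.24 (SE, edgeR FDR = 0.0242 and 0.00158).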
